A study of Mus musculus with 4 samples.

Results

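The genes described here are 10 genes of cellular defence against oxidants and metals: Hmox1, Nqo1, Gclc, Gclm, Txnrd1, Srxn1 and Slc7a11, which are established targets of the transcription factor NRF2, the antioxidant enzyme gene Gpx1, and the metallothionein genes Mt1 and Mt2. They were taken by symbol from a table of 24346 genes, where all 10 were found, and 9 of them reached the mean of 1 FPKM (a level scaled to transcript length and library depth) that was asked of a gene before it was tested. The series measured RNA in heart endothelial cells that flow cytometry had isolated from young mice with a C57BL/6 background. Of its 4 libraries, ECp53KO_170 and ECp53KO_172 carry the genotype ECp53KO, which is taken here to be a p53 knockout restricted to endothelium, since the title of the series is about p53 there, and Ctrl_178 and Ctrl_182 are wild type. The cells of both groups were freshly isolated, and no treatment is named for either beyond the sort. The labels give neither the Cre driver nor the deleted exons, and they do not say that each library is a separate mouse, so p-values measure the spread between these libraries only.

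NRF2, encoded by Nfe2l2, is held at a low level by KEAP1, which directs its degradation. When oxidants or electrophiles modify KEAP1, NRF2 accumulates, pairs with a small MAF protein and binds antioxidant response elements in DNA, from which the repressor BACH1 is displaced. Its targets make glutathione, recycle thioredoxin and peroxiredoxin, detoxify quinones and degrade haem. Metallothioneins are small, cysteine-rich proteins that bind zinc and copper. Their genes respond to metals through the zinc sensor MTF1 at metal response elements, and they also respond to glucocorticoids. In endothelium these systems limit damage by peroxides and haem, and p53 has been linked to them through Gpx1 and through repression of Slc7a11.

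The sequences below are shown because they hold a spelling of the core of these 2 kinds of element, in the genes whose values are described next. Searched were the antioxidant response element core TGACNNNGC and the metal response element core TGCNCNC, on both strands, in RefSeq's promoter table for GRCm38.p6. In the 250 bases before an annotated start, 10.2% of its 32851 promoters hold the former and 44.4% the latter. These shares are per promoter, while the genes below are counted over all their annotated starts, of which Txnrd1 has 3. The 2 are therefore not quite like measures. The table holds 8 of the 10 genes. Of these 8, 3 hold the antioxidant core (Gclm, Txnrd1 and Mt2) and 6 the metal core. Other spellings of either element, and stretches farther before the start, were not searched. The Srxn1 window holds TGAGTCAGC, which differs from the searched core in having TGAG for TGAC and so was not counted. In the Gpx1 window, 177 of the 250 bases lie in exons of the gene. In Mt1 and Mt2 the annotated first exon (GENCODE M21) runs past a TATAAA box, 128 and 89 bases from the exon's start. A window of 250 bases before that box was therefore searched too, a choice made after the first search, and there Mt1 holds 5 metal cores and Mt2 holds 6, and each holds 1 antioxidant core. Of all windows of this length before an annotated start, 0.344% hold at least 5 metal cores and 0.0944% at least 6. In their own windows before the annotated start, Mt1 holds 1 metal core and Mt2 holds 5. The windows before the box are placed otherwise, so these shares are not a like measure for them. Capitals mark the matched core. All lines run along the gene's own strand, so a core on the other strand appears as its reverse complement.
Mt1, metal core (chr8:94179083-94179105, plus strand): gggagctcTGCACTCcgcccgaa
Mt1, metal core (chr8:94179179-94179201, plus strand): aaacccttTGCGCCCggactcgt
Mt1, antioxidant core (chr8:94179133-94179157, plus strand): ggggcgcgTGACTATGCgtgggctg
Mt2, metal core (chr8:94172668-94172690, plus strand): aaaagggcGTGTGCAggcggcgg
Mt2, metal core (chr8:94172721-94172743, plus strand): ggagctttTGCGCTCgacccaat
Mt2, antioxidant core (chr8:94172531-94172555, plus strand): agggggtgTGACTCAGCgcgggggg
Gclm, antioxidant core (chr3:122245414-122245440, plus strand): ctcccgggcGCACCGTCAactctcacg
Txnrd1, antioxidant core (chr10:82859105-82859131, plus strand): tggatttttGCTTTGTCAttctgacac
A metal core overlaps the antioxidant core in Gclm, and the match in Txnrd1 lies before the second of its 3 annotated starts. A match is a description of letters and not of binding.

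The knockout label was checked on Trp53, the p53 gene, at 4.41 and 2.45 FPKM in the knockouts and 52.1 and 28.8 FPKM in the controls. Trp53 did not pass over all genes (log2 fold change -3.20 ± 0.36 SE; limma adjusted p = 0.146). Estimated depth was between 9900000 and 11400000 fragments in 3 libraries and 22500000 fragments in Ctrl_182. Of 11332 tested genes, 3 (0.0265%) were higher and 10 (0.0882%) lower in ECp53KO past a limma adjusted p of 0.05, and 12 of these 13 are small RNA loci. Leaving out ECp53KO_170, ECp53KO_172, Ctrl_178 or Ctrl_182 gave 18, 21, 1 and 4 genes higher and 13, 12, 58 and 34 lower. Pan-endothelial markers summed to between 5670 and 6196 FPKM in every library, with Cdh5, the adherens junction cadherin of endothelium, at 958 to 1098 FPKM and the secreted factor Egfl7 at 847 to 1132 FPKM.

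Of the 9 tested genes, 0 passed the test, and Slc7a11 was too low to be tested. Of the 6 tested NRF2 targets, 5 had groups that overlapped and log2 fold changes between -0.017 and 0.076, and Hmox1 was at -0.17, while the means of both metallothioneins were lower in ECp53KO: Mt1 averaged 12.6 ± 2.51 FPKM against 23.5 ± 3.495 in Ctrl, and Mt2 3.10 ± 2.75 against 5.62 ± 2.50 (SD, n = 2 each). By limma 1 of the 9 tested genes, Mt1, was lower at an unadjusted p under 0.05 (2.82% of all tested genes were), and 0 were higher (1.97% of all). The groups did not overlap for 2 of the 9, Mt1 and Hmox1, both lower in ECp53KO, a state that 16.8% of all tested genes share. For 0 of the 9 were both ECp53KO libraries above both controls, against 19.1% of all tested genes. Over the 9 genes 5 fold changes were positive and 4 negative, with a median log2 fold change of 0.0078, beside 0.012 over all tested genes (5857 positive and 5475 negative). Without ECp53KO_170 the count of 2 became 3, without ECp53KO_172 it became 4, and without Ctrl_178 it became 6, while it stayed at 2 without Ctrl_182. In each case 1 library then stands for a group, which makes an overlap rarer. The share of all tested genes at these settings is not given here, so these counts cannot be set beside the 16.8%.

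**Figure D1:**
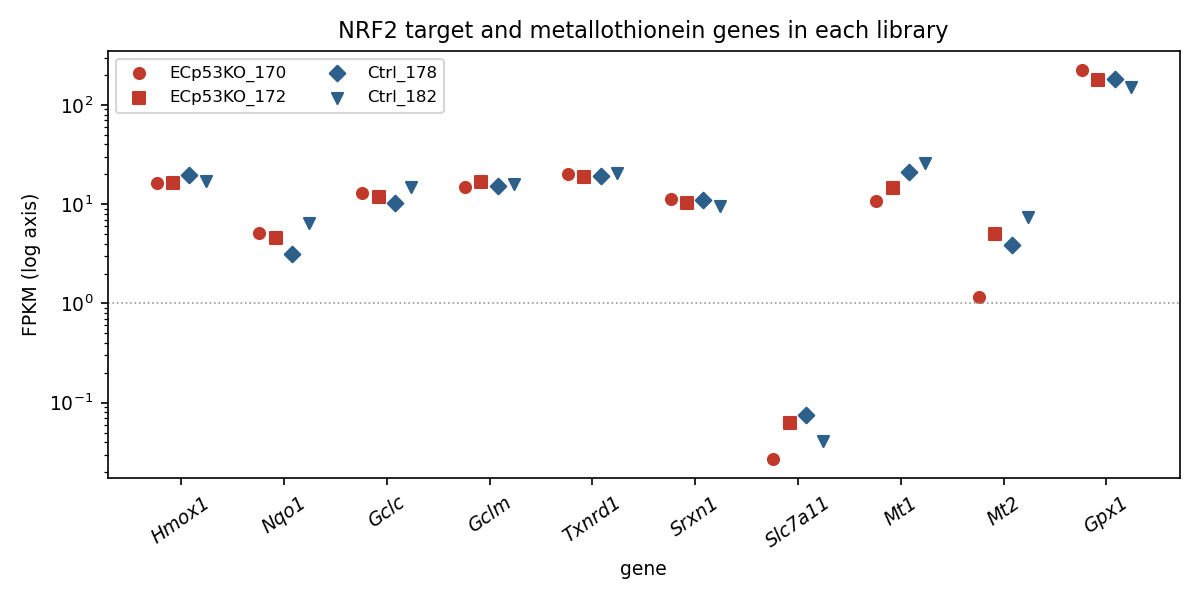
FPKM of each of the 10 genes (log axis) in the 4 libraries, ECp53KO in red and Ctrl in blue, with the dotted line at 1 FPKM. Mt1 lies at 10.8 and 14.4 in the knockouts and at 21.1 and 26.0 in the controls, Gpx1 lies above 150 FPKM throughout, and Slc7a11 lies below 0.1 FPKM in every library.

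Glutathione is made in cells from glutamate, cysteine and glycine, and its first step is catalysed by glutamate-cysteine ligase. Gclc, the catalytic subunit of that enzyme (chromosome 9, 77754535 to 77794489 in GRCm38, as for all positions), was measured at 13.0 and 11.9 FPKM in the knockouts and 10.2 and 15.0 FPKM in the controls. The controls lay on both sides of the knockouts. Its log2 fold change was 0.013 ± 0.22 (SE; 95% interval -0.55 to 0.58). Gclm, the modifier subunit (chromosome 3, 122245487 to 122267215), stood at 14.8 and 16.7 FPKM against 15.2 and 16.1 FPKM. Both controls lay between the knockouts. The span of Gclm overlaps those of the non-coding Gm46822, which ends at 122245506, and the pseudogene Gm6061. Whether their exons overlap was not examined. Only in a stretch that exons share could unstranded reads not be told apart. The log2 fold change of Gclm was 0.0078 ± 0.15, with an interval of -0.39 to 0.40. The limma adjusted p-values of Gclc and Gclm were 0.992 and 0.994.

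Slc7a11 encodes the exchanger that brings in cystine for glutathione synthesis (chromosome 3, 50364936 to 50499087). It was listed at 0.0271 and 0.0622 FPKM in the knockouts and 0.0752 and 0.0412 FPKM in the controls. With the longest annotated transcript, of 9223 bases, these values stand for at most about 3, 6, 8 and 9 fragments. The gene was below the level tested, and a difference between the groups was not detectable at this depth. Its partner subunit Slc3a2, which also serves other transporters and was named after its values were seen, stood at 64.9 and 66.4 FPKM against 59.1 and 75.6 FPKM.

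Thioredoxin reductase 1, encoded by Txnrd1 (chromosome 10, 82833951 to 82897724), keeps cytosolic thioredoxin reduced. Txnrd1 stood at 20.2 and 18.9 FPKM in the knockouts and 19.1 and 20.5 FPKM in the controls. It was the steadiest of the 9 tested genes, with an SD of log2(FPKM + 1) over the 4 libraries of 0.05, where the median over all tested genes was 0.21 and 2.65% of them had a lower SD. Its log2 fold change was -0.017 ± 0.15, with an interval of -0.39 to 0.36. Srxn1, which encodes sulfiredoxin, the enzyme that restores overoxidised peroxiredoxins (chromosome 2, 152105524 to 152111376), stood at 11.2 and 10.4 FPKM against 10.9 and 9.53 FPKM. The groups overlapped, and the log2 fold change of Srxn1 was 0.076 ± 0.16, with an interval of -0.34 to 0.49. Within the span of Txnrd1 lie Eid3, at 0.0740 to 0.850 FPKM, and the non-coding Gm38560, whose level was not analysed here. Whether their exons overlap those of Txnrd1 was not examined.

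Nqo1 encodes the quinone reductase that is often used as a readout of NRF2 (chromosome 8, 107388225 to 107403205). It stood at 5.13 and 4.51 FPKM in the knockouts and 3.14 and 6.43 FPKM in the controls. The lowest and the highest value were both controls. The log2 fold change of Nqo1 was 0.067 ± 0.32, with an interval of -0.74 to 0.87. Hmox1 encodes haem oxygenase 1, which breaks down haem (chromosome 8, 75093618 to 75100593). It stood at 16.3 and 16.2 FPKM in the knockouts and 19.7 and 17.2 FPKM in the controls. Both knockouts lay below both controls, by little: the log2 fold change of Hmox1 was -0.17 ± 0.15 (interval -0.56 to 0.22, limma adjusted p = 0.872). Macrophages also express Hmox1. Their 12 markers summed to 7.98 and 6.74 FPKM in the knockouts and 11.3 and 5.93 FPKM in the controls, 8 of them were below 1 FPKM in every library, and the Fc receptor gene Fcgr1 was listed at 0 in all 4. The most abundant were Lyz2, at 2.52 to 3.19 FPKM, and Cd68, at 0.702 and 0.307 FPKM against 4.31 and 1.08 FPKM. The markers did not share a direction. C1qa, named after its values were seen, was higher in the knockouts, at 1.85 and 0.959 against 0.772 and 0.235 FPKM. The sum in Ctrl_178 includes the 4.31 FPKM of Cd68. The part of such cells in the Hmox1 values was not tested.

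Gpx1 encodes the cytosolic glutathione peroxidase that removes hydrogen peroxide (chromosome 9, 108339080 to 108340342). It was the most abundant of the 10 genes, above 95.7% of the tested genes by its mean. Gpx1 stood at 224 and 180 FPKM in the knockouts and 183 and 151 FPKM in the controls. ECp53KO_170 was the highest, and ECp53KO_172 lay between the controls. The log2 fold change of Gpx1 was 0.27 ± 0.21, with an interval of -0.26 to 0.80 (limma adjusted p = 0.864), and it was 0.11 without ECp53KO_170 and 0.43 without ECp53KO_172. Red blood cells are rich in this enzyme. Of 11 erythroid markers 9 were in the table, 6 of 7 tested had a positive fold change, and they summed to 464 and 98.4 FPKM in the knockouts and 69.1 and 42.3 FPKM in the controls. Of the 7, 0 passed over all genes, and 6 were higher without overlap (19.1% of all tested genes). At an unadjusted limma p under 0.05, 3 were higher (1.97% of all). The globin genes Hbb-b1 (191, 55.4, 37.5 and 19.9 FPKM) and Hba-a1 (49.5, 28.1, 20.6 and 12.9 FPKM), uncertain because they have near-identical copies, led that list. Cardiomyocyte markers summed to 494 and 281 against 273 and 256 FPKM, with Myl2 at 145 FPKM in ECp53KO_170 and 66.0 to 81.8 FPKM in the others and Mb at 86.3 and 51.7 to 59.9 FPKM. Of 12 tested cardiomyocyte markers 0 passed, 11 had a positive fold change and 3 were higher without overlap, beside the same 19.1%. The part of other cells in the Gpx1 values was not tested, and in sorted bulk RNA fewer cells of a type and less RNA per cell cannot be told apart.

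**Figure D2:**
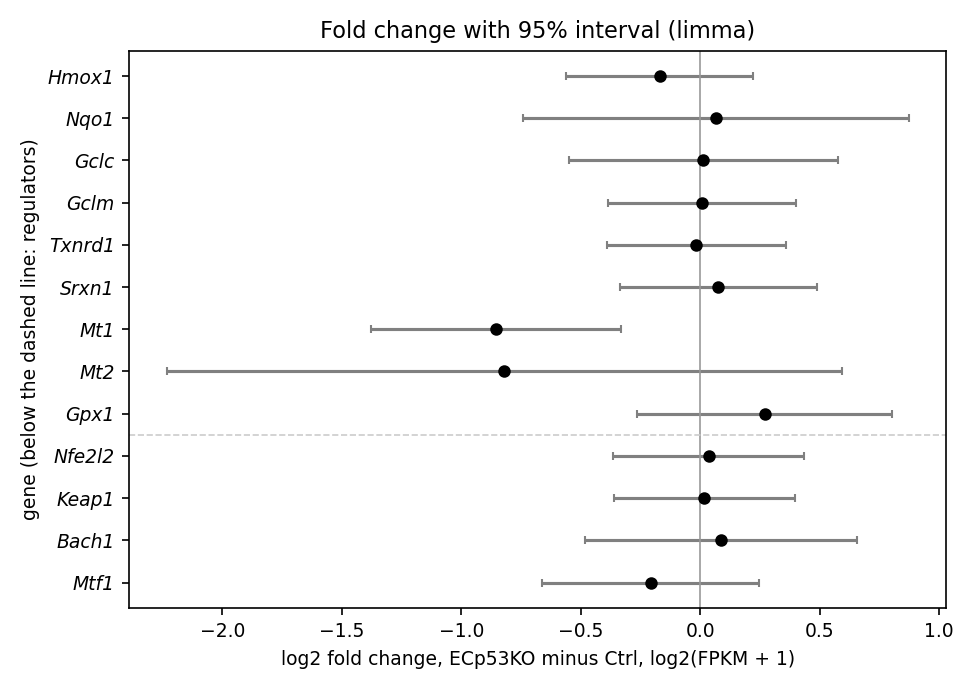
Log2 fold change (ECp53KO minus Ctrl, on the log2(FPKM + 1) scale) of the 9 tested genes and of 4 regulators below the dashed line, with 95% intervals from limma that are not adjusted for the number of genes. The interval of Mt1, from -1.38 to -0.33, is the one that leaves out 0, and that of Mt2 is the widest.

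Mt1 and Mt2 lie next to each other on chromosome 8 (94178883 to 94180327 and 94172618 to 94173567), 5.316 kb apart, and carry the metal cores printed above. Mt1 stood at 10.8 and 14.4 FPKM in the knockouts and 21.1 and 26.0 FPKM in the controls. Both knockouts were below both controls, and the mean of the controls was 1.87 times as high. The log2 fold change of Mt1 was -0.86 ± 0.21 (SE), with an interval of -1.38 to -0.33. It did not pass over all genes (limma adjusted p = 0.864). Over the 12 alternatives its fold change ran from -1.04 to -0.67 and its limma adjusted p from 0.321 to 0.9997. Its unadjusted p was no longer under 0.05 without Ctrl_182, where the fold change was -0.71.

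Mt2 stood at 1.16 and 5.05 FPKM in the knockouts and 3.85 and 7.39 FPKM in the controls. Here the groups overlapped, since ECp53KO_172 lay between the controls. The log2 fold change of Mt2 was -0.82 ± 0.55, with an interval of -2.23 to 0.59 (limma adjusted p = 0.864). Leaving out ECp53KO_170 gave -0.077 and leaving out ECp53KO_172 gave -1.57, while it was -1.22 without Ctrl_178 and -0.43 without Ctrl_182. On its longest annotated transcript, of 511 bases, the 4 values of Mt2 stand for at most about 7, 26, 21 and 85 fragments, and those of Mt1, on 1085 bases, for at most 134, 155, 249 and 635. The ratio of Mt1 to Mt2 in FPKM was 9.37 and 2.85 in ECp53KO and 5.47 and 3.52 in Ctrl. Mt3, the metallothionein gene of the brain, also named after its values were seen, was listed at 0 in both ECp53KO libraries and at 0.254 and 0.124 FPKM in Ctrl. These control values stand for at most about 1 fragment each, so no difference between the groups can be read from Mt3.

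Each group holds 1 library with the female transcript Xist above 1 FPKM (ECp53KO_172 and Ctrl_182) and 1 without. With Xist, the control had 1.81 times the Mt1 and 1.46 times the Mt2 level of the knockout. Without it, these ratios were 1.94 for Mt1 and 3.33 for Mt2. The control was the higher in both pairs for both genes. For Mt1 any pairing gives this, since both controls exceed both knockouts. For Mt2 it depends on the pairing, since ECp53KO_172 (5.05 FPKM) was above Ctrl_178 (3.85 FPKM). The share of all tested genes with the same direction in both pairs is not given here. With Xist as a covariate both Mt1 and Mt2 were under an unadjusted limma p of 0.05, where Mt1 alone was without it. The share of all tested genes under that p in the fit with Xist is not given here. The SE of Mt2 was then 0.26 in place of 0.55, and the limma adjusted p was 0.903 for both genes. The fit with this covariate has a single residual degree of freedom among the libraries.

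Of a list of 11 genes for NRF2 and its regulators, 0 passed the test. Nfe2l2 stood at 65.5 and 62.2 FPKM in the knockouts and 58.3 and 66.5 FPKM in the controls. Keap1 stood at 28.2 and 27.6 against 29.2 and 26.0 FPKM, and Bach1 at 8.03 and 11.6 against 8.32 and 9.83 FPKM. The groups overlapped for all 3. Their log2 fold changes were 0.034 ± 0.16, 0.017 ± 0.15 and 0.086 ± 0.22, and all 3 turned negative after rescaling to an equal sum. Mtf1, the metal sensor, is counted with the metal transport genes and not among these 11. Mtf1 stood at 3.58 and 3.51 FPKM against 4.26 and 4.25 FPKM. It was lower in both knockouts without overlap, by -0.21 ± 0.18 on the log2 scale (limma adjusted p = 0.870). Of the 11, 1 was higher without overlap, where 19.1% of all tested genes were (Rbx1, a subunit of the ligase that KEAP1 recruits, at 78.8 and 56.3 against 55.2 and 55.8 FPKM), and 2 were lower, where 16.8% of all were. These were the small MAF gene Mafk, at 34.8 and 43.0 against 43.7 and 50.9 FPKM, and Nfe2l1, an NRF2 relative that controls proteasome genes, at 115 and 127 against 134 and 128 FPKM. NRF2 is regulated mainly by protein stability, which RNA levels do not show.

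The wider pathway was read from 9 lists of redox and metal genes, with 82 tested genes besides the members. Of these 82, 0 passed over all genes, 3 were higher at an unadjusted limma p under 0.05 (1.97% of all tested genes) and 0 were lower (2.82%). Without overlap 21 of the 82 were higher (19.1% of all tested genes) and 11 lower (16.8%). The medians of the 9 lists lay between -0.047 and 0.13, beside 0.012 over all tested genes, and between -0.16 and 0.030 beside -0.095 with every library rescaled to an equal sum. The 3 with an unadjusted p under 0.05 were Gstp1, Gstt1 and Tfrc, all higher in ECp53KO. Except where said otherwise, genes with values given from these and the glucocorticoid and heat shock lists were picked among those without overlap. They are those with the smallest p. Their lack of overlap follows from that choice and is no further result.

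Glutathione peroxidases and transferases numbered 15, with a median of 0.047. Without overlap 5 were higher (19.1% of all tested genes) and 3 lower (16.8%). Gstp1, a glutathione transferase of the pi class, stood at 49.4 and 39.5 FPKM in the knockouts and 28.7 and 25.0 FPKM in the controls. Both knockouts were above both controls, and the difference was 0.70 ± 0.18 on the log2 scale (limma adjusted p = 0.864). Gstp1 has a near-identical neighbour gene, and how the authors' counting shares reads between them is not given, so its level is uncertain. Gstt1, of the theta class, stood at 27.9 and 22.2 against 14.2 and 18.6 FPKM, and Gstk1, of the kappa class in mitochondria and peroxisomes, at 43.7 and 27.3 against 19.6 and 27.2 FPKM. The gap for Gstk1 was small, since ECp53KO_172 and Ctrl_182 were nearly equal. Among 9 tested genes of glutathione synthesis and transport, 2 were higher and 2 lower without overlap, beside the same 19.1% and 16.8%. Gsr, which recycles oxidised glutathione, stood at 18.6 and 16.4 against 14.2 and 14.6 FPKM, and Chac2 and Ggt5, which degrade glutathione, at 3.04 and 1.72 against 3.90 and 3.18 FPKM and at 3.87 and 4.04 against 4.07 and 6.87 FPKM.

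Thioredoxins and peroxiredoxins numbered 12, with 9 positive fold changes (5857 of all 11332 were) and a median of 0.12, and 5 were higher without overlap, beside 19.1% of all tested genes. Prdx1, a cytosolic peroxiredoxin that sulfiredoxin repairs, stood at 261 and 207 FPKM in the knockouts and 184 and 185 FPKM in the controls. Mitochondrial thioredoxin, Txn2, stood at 66.7 and 70.1 against 65.7 and 51.2 FPKM, and Prdx5 at 80.2 and 60.9 against 57.3 and 58.7 FPKM. Of these 3, Prdx1 and Prdx5 were highest in ECp53KO_170, and the same held for Sod1, the cytosolic superoxide dismutase, at 621, 422, 414 and 391 FPKM in ECp53KO_170, ECp53KO_172, Ctrl_178 and Ctrl_182. G6pdx, which supplies NADPH, stood at 12.6, 8.53, 7.42 and 8.11 FPKM in that order of libraries, and ferritin heavy chain, Fth1, at 804, 549, 495 and 508 FPKM. None of these passed. In ECp53KO_170 the deviation of a gene from the other libraries went with transcript length (Spearman's rho -0.25 in ECp53KO_170 and 0.10 to 0.19 in the other libraries; the points are genes and so no replicates). With the length trend removed, the log2 fold change went from 0.33 to 0.27 for Prdx1, from 0.27 to 0.21 for Prdx5, from 0.35 to 0.36 for Sod1, from 0.38 to 0.34 for G6pdx and from 0.41 to 0.35 for Fth1. Without ECp53KO_170 it lay between 0.067 and 0.16 for these 5 genes.

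In iron handling, Tfrc, the transferrin receptor, stood at 4.13 and 2.94 FPKM in the knockouts and 1.998 and 1.81 FPKM in the controls. The knockouts lay above the controls, by 0.63 ± 0.23 on the log2 scale (limma adjusted p = 0.864). Erythroid cells express Tfrc strongly, and the erythroid markers given beside Gpx1 were highest in the same library, ECp53KO_170; their part in the Tfrc values was not tested. Among 9 tested detoxification genes 3 were higher and 2 lower without overlap, beside 19.1% and 16.8% of all tested genes. Ephx1, the microsomal epoxide hydrolase, stood at 173 and 151 FPKM against 213 and 210 FPKM, Osgin1 at 2.78 and 2.40 against 4.54 and 3.01 FPKM, and the aldose reductase gene Akr1b3 at 17.6 and 18.6 against 15.9 and 5.65 FPKM. For Akr1b3 a single control, Ctrl_182, stood apart.

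Metal transport genes had 2 positive and 6 negative fold changes among 8 tested, with a median of -0.047. The zinc importer Slc39a14 stood at 9.53 and 11.4 FPKM in the knockouts and 12.1 and 16.5 FPKM in the controls, in the same order of libraries as Mt1, and another importer, Slc39a10, at 28.1 and 27.9 against 25.0 and 23.9 FPKM. Slc30a1, a zinc exporter that MTF1 induces and that was named after its values were seen, stood at 17.2 and 31.3 against 26.4 and 29.6 FPKM. The exporter was lowest in ECp53KO_170, as were Mt1 and Mt2, and its groups overlapped.

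**Figure D3:**
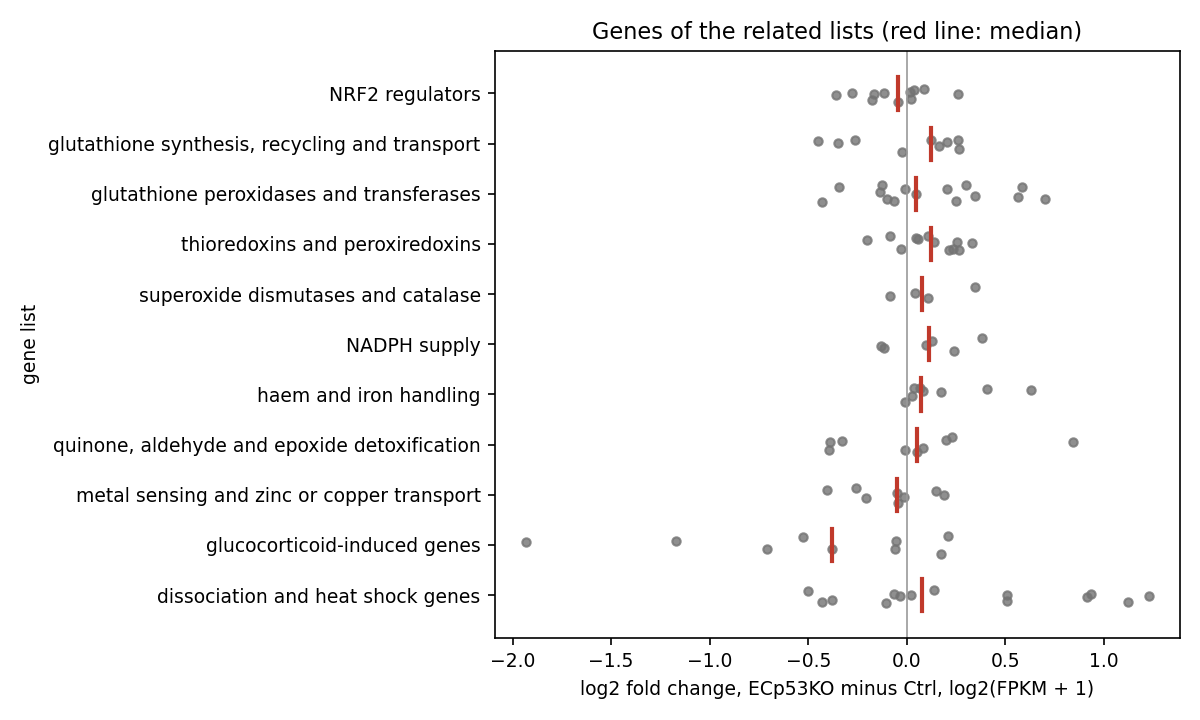
Log2 fold change (ECp53KO minus Ctrl, on the log2(FPKM + 1) scale) of each tested gene in 11 lists, a point per gene, spread vertically for legibility, with a red line at the list's median. Medians of the redox and metal lists lie between -0.047 and 0.13, and that of the glucocorticoid-induced genes at -0.38.

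A further pair of lists hold genes that respond to stimuli which also act on metallothioneins or on Hmox1. Of 9 glucocorticoid-induced genes 0 passed over all genes, 7 had a negative fold change, and the median was -0.38 (-0.56 to -0.20 over the alternatives), beside 0.012 over all tested genes. Of the 9, the groups did not overlap for 3 that were lower (16.8% of all tested genes) and 1 that was higher (19.1%). Per1, a clock gene induced by glucocorticoids, stood at 35.9 and 47.8 FPKM in the knockouts and 69.5 and 67.1 FPKM in the controls. Both knockouts were below both controls, by -0.71 ± 0.19 on the log2 scale (limma adjusted p = 0.864). Fkbp5, a co-chaperone of the glucocorticoid receptor, stood at 5.02 and 5.74 against 7.85 and 22.3 FPKM, and Tsc22d3, which encodes the leucine zipper protein GILZ, at 215 and 204 against 246 and 371 FPKM.

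The control Ctrl_182 stood highest for Fkbp5 and Tsc22d3, as it did for Mt1 and Mt2. Not all genes of the list did so. Per1 was highest in Ctrl_178, and Cdkn1c and Errfi1, named after their values were seen, were highest in ECp53KO_170. Without Ctrl_182 the log2 fold change of Fkbp5 was -0.47, and without Ctrl_178 it was -1.87. Fkbp5 ranked the 4 libraries as Mt1 did, an order shared by 4.87% of all tested genes, by 1 of these 9 genes and by 3 of the 14 genes of heat shock and early response (Fosb, Egr1 and Dusp1). In the redox and metal lists Mafk, Ggt5, Gstm5 and Slc39a14 shared it too. Zbtb16 and Klf9, also of this list and named after their values were seen, ranked them as Mt2 did, which 4.63% of all tested genes do. Zbtb16 stood at 1.16 and 6.80 against 5.56 and 36.3 FPKM, and Klf9 at 54.0 and 71.9 against 71.8 and 92.1 FPKM. With 4 libraries such an order is a weak description, and a common source of these values was not tested.

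Genes of heat shock and of the early response to cell isolation numbered 14, and 0 passed over all genes. All 5 heat shock genes among them were higher in each knockout than in each control (19.1% of all tested genes were), with 3 at an unadjusted limma p under 0.05. The subset of 5 was set apart after its values were seen. The small heat shock protein gene Hspb1 stood at 1636 and 1270 FPKM in the knockouts, above 948 and 598 FPKM in the controls, by 0.94 ± 0.34 on the log2 scale. The co-chaperone genes Dnajb1 and Hsph1 stood at 51.2 and 39.4 against 33.1 and 29.4 FPKM and at 8.70 and 18.1 against 7.46 and 2.99 FPKM. Hspa1a and Hspa1b, near-identical inducible HSP70 genes whose split is uncertain and which were named after their values were seen, were lowest in Ctrl_182, at 79.8 and 97.0 FPKM, with 205 and 259 FPKM in Ctrl_178 and 263 to 328 FPKM in ECp53KO. Hmox1, itself a stress-induced gene, was not above the controls in these libraries. Of the 9 immediate early genes, 2 were higher and 3 lower without overlap (19.1% and 16.8% of all tested genes), with a median of -0.066.

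**Figure D4:**
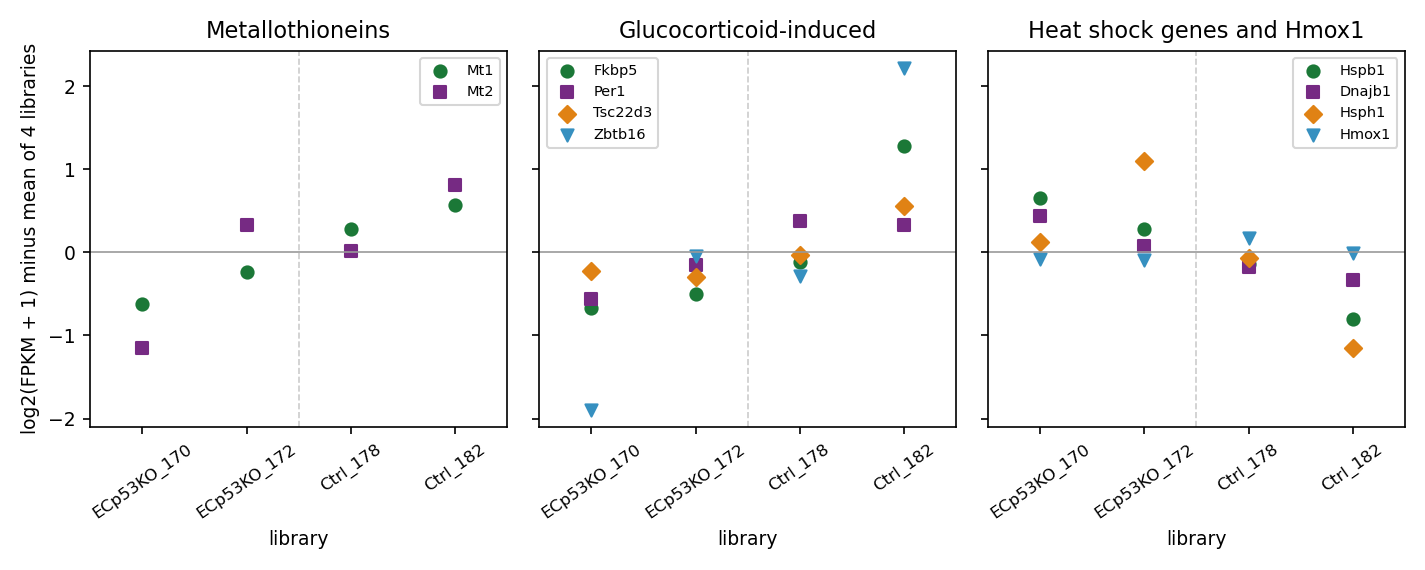
Level of metallothioneins, 4 glucocorticoid-induced genes, and heat shock genes with Hmox1 in each library, as log2(FPKM + 1) minus the mean of the 4 libraries, with a dashed line between the ECp53KO and Ctrl libraries. Mt1, Mt2, Fkbp5, Tsc22d3 and Zbtb16 are highest in Ctrl_182, and Per1 is highest in Ctrl_178. Hspb1, Dnajb1 and Hsph1 are lowest in Ctrl_182, while Hmox1 stays near 0. The genes shown were picked after their values were seen.

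Of the mural cell markers 0 passed the test. The 11 pericyte and smooth muscle markers summed to 181 and 149 FPKM in ECp53KO and to 98.2 and 117 FPKM in Ctrl, all 9 tested had a positive fold change, and 3 were higher at an unadjusted limma p under 0.05 (1.97% of all tested genes). The groups did not overlap for 4 of the 9 (19.1% of all tested genes were higher in this way). Rgs5, a pericyte gene, stood at 91.9 and 77.3 against 52.4 and 68.6 FPKM, and the myosin light chain gene Myl9 at 24.3 and 18.3 against 11.5 and 9.53 FPKM. Fibroblast markers summed to 33.5 and 31.0 against 35.02 and 33.6 FPKM, with Dcn at 16.2 to 20.0 FPKM and Pdgfra at 3.01 to 3.97 FPKM. The part of mural cells in the values of the 10 genes was not tested.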

How the data were processed

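RNA from sorted heart endothelial cells was measured in 2 ECp53KO and 2 Ctrl libraries, grouped by title. Per the labels' protocols, libraries were polyadenylated, unstranded and read in pairs. Per the submitters' processing notes, the tools included TopHat2 2.1.0 and Cufflinks 2.2.1, besides bcl2fastq 2.17, FastQC 0.11.5 and Trimmomatic 0.36, and the build was mm10. For the annotation, the sources used here give no name. The authors deposited FPKM per gene symbol, so no count test was run.

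Values were analysed as log2(FPKM + 1) for the 11332 genes that averaged 1 FPKM or more. The two-sided test was limma's (3.58.1, under R 4.3.3), its prior following the mean level, Benjamini-Hochberg adjusted over all of them, with a threshold of 0.05 and 2 residual and 3.15 prior degrees of freedom. This scale understates fold changes of low genes. An exact permutation test of 2 against 2 cannot go below p = 0.333 and was not used. The code of the fit was run on simulated data with the same spread for every gene. The real spread differs between genes, so that run checks the code and not the calls made here.

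Depth was estimated by taking as 1 fragment the step most common in FPKM times length over 1037 genes that have 1 transcript, longer than 2000 bases, in GENCODE M21. Fragment numbers are upper estimates from the longest transcript. Gene positions are RefSeq's for GRCm38.p6, the assembly named mm10 in browsers.

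The genes and lists were chosen with earlier results of these data known. Named are all 10 genes, Trp53, 4 regulators, up to 3 genes per related list with the smallest p among those without overlap, and the 2 most abundant markers per cell type. Protein sequences were not used here. The 12 alternatives were another pseudocount (0.1), no filter, 2 rescalings, no small RNA loci, no length trend, robust shrinkage, an Xist covariate and each library left out.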

Additional observations from a re-analysis of the deposited data

How the results depend on the processing

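The count of called genes among the 10 described and among the related lists was 0 under all 12 alternatives. By unadjusted limma p under 0.05, 1 of the 9 tested was lower (Mt1) and 0 higher. This became 2 lower (Mt1 and Mt2) with the Xist covariate and without ECp53KO_172, and 0 without Ctrl_182. The shares of all tested genes at these settings are not given here. Fold changes of Hmox1, Mt1 and Mt2 stayed negative and that of Gpx1 positive in all 12. No pairing by the labels was possible because no replicate number occurs in both groups. The Xist covariate is a block drawn from the data and not from the labels. Depth limits Mt2 and Slc7a11 most, by their few fragments.

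For 5 of the 9 and for 3 regulators, all with a fold change near 0, the sign changed, with no call at any setting. With each library rescaled to the same sum of FPKM, which moves the median of all genes from 0.012 to -0.095, the log2 fold change was -0.027 for Nqo1, -0.097 for Gclc, -0.10 for Gclm, -0.032 for Srxn1, -0.081 for Nfe2l2, -0.096 for Keap1 and -0.019 for Bach1. With the length trend removed it was -0.033 for Gclc, -0.034 for Gclm, 0.020 for Txnrd1 and -0.035 for Srxn1. Leaving out each library in turn gave -0.35 to 0.49 for Nqo1, -0.25 to 0.27 for Gclc, -0.076 to 0.092 for Gclm, -0.065 to 0.030 for Txnrd1, -0.012 to 0.16 for Srxn1, -0.060 to 0.13 for Nfe2l2, -0.064 to 0.099 for Keap1 and -0.15 to 0.33 for Bach1. The cause was not tested.

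Of the 9 tested genes, 1 (Gpx1) was higher without overlap after rescaling to the same sum. Leaving out a library gave 1 to 2 higher and 2 to 6 lower without overlap, where fewer samples make an overlap rarer. The shares of all tested genes at these settings are not given here, so these counts have no background to be read against. Over all genes 5 were called higher with a pseudocount of 0.1, 5 with robust shrinkage and 1 with no filter, in place of 3, and 4 lower without small RNA loci, in place of 10. Leaving out a library gave 1 to 21 higher and 12 to 58 lower. Trp53 passed without small RNA loci (log2 fold change -3.20, limma adjusted p = 0.0127), with robust shrinkage (-3.20, 0.0412) and with the Xist covariate (-3.20, 0.0208).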
